A study of Mus musculus with 12 samples.

Results

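The genes described here encode the receptors for type I interferons (Ifnar1 and Ifnar2), for IFN-γ (Ifngr1 and Ifngr2) and for IL-10 (Il10ra and Il10rb), together with the Janus kinases bound to them (Jak1, Jak2 and Tyk2). They were taken by name from the Ensembl identifiers of a table of RNA sequencing counts, and all 9 of the 9 genes were found among 37991 identifiers and were among the 13538 genes with enough counts to be tested. The counts came from B cells purified from the spleens of mice aged 8 weeks, either left resting (0 h) or incubated for 3 h with anti-IgM and IL-4. Cells labelled CD23iCre/Runx1 ck/o came from Runx1 fl/fl mice that carried a Cd23-Cre transgene (Runx1 c-k/o), and the control cells, labelled CD23-iCre, carried the transgene without the floxed allele (Cre-only). Each of the 4 groups, Cre-only and Runx1 c-k/o at 0 h and at 3 h, held 3 samples, 12 in all, and every group carried Cre. The transgene is first active in transitional B cells and acts on the loxP-flanked exon 4 of Runx1. The 6 samples of Runx1 c-k/o cells are called knockout below. The study calls its samples biological replicates, and the labels number them without tying a number to an animal.

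All of these receptors are built from paired chains without enzyme activity of their own, and each chain holds a Janus kinase at its inner face. Ligand brings the chains together, the kinases phosphorylate each other and the receptor, and STAT factors are recruited, phosphorylated and sent to the nucleus. IFNAR1 binds TYK2 and IFNAR2 binds JAK1, and this receptor acts through STAT factors joined by IRF9. IFNGR1 binds JAK1 and IFNGR2 binds JAK2. IL10RA, the chain that binds IL-10, carries JAK1, whereas IL10RB carries TYK2, is shared with the receptors for IL-22 and IFN-λ, and with IL10RA signals through STAT3. In B cells, type I interferon heightens responsiveness to antigen, IFN-γ promotes class switching, and IL-10 is both a growth factor and a product of regulatory B cells.

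Ifnar2, Il10rb, Ifnar1 and Ifngr2 lie together on the plus strand of chromosome 16, the chromosome that also holds Runx1. In the mm9 build used by the deposited files, Ifnar2 spans chr16:91373028-91419696, Il10rb chr16:91406409-91426074, Ifnar1 chr16:91485483-91507686 and Ifngr2 chr16:91547317-91565414. Their starts lie between 1279.0 kb and 1453.3 kb from the Runx1 start. The 3′ end of Ifnar2 overlaps Il10rb on the same strand with shared exon sequence, so reads from that stretch cannot be assigned with certainty to either gene. Jak1 (chr4:100824972-100937887, minus strand) shares exon sequence with Raver2 on the opposite strand, and the strand setting of the counting is not given in the sources used here. Ifngr1 is at chr10:19311755-19330035 (plus strand), Il10ra at chr9:45061922-45077232 (minus strand), Jak2 at chr19:29326318-29387570 (plus strand) and Tyk2 at chr9:20908521-20931790 (minus strand).

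The stretches just upstream of 3 genes of this cluster are shown because the genes lie together yet differed in their values between genotypes. Each is the 250 bases before the transcription start in the RefSeq promoter table (GRCm38.p6), found once in mm9, on the plus strand, at chr16:91485210-91485459 for Ifnar1, chr16:91372778-91373027 for Ifnar2 and chr16:91547054-91547303 for Ifngr2. Capitals mark the only match to any of the motifs searched.
Ifnar1: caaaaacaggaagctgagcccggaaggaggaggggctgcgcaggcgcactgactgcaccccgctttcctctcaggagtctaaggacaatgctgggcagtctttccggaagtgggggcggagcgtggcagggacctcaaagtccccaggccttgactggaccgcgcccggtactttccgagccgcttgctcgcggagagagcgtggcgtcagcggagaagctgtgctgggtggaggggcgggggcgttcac
Ifnar2: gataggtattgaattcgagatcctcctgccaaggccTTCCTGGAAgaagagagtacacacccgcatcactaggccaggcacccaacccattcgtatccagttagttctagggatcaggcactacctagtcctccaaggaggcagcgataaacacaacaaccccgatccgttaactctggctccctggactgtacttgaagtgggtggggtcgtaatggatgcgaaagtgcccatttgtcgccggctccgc
Ifngr2: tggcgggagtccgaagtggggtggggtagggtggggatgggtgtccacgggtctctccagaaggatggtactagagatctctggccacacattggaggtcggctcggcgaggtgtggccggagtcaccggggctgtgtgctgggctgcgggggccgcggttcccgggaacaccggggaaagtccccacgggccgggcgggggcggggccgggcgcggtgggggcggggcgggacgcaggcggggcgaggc
The Ifnar2 stretch holds TTCCTGGAA, a match to the STAT site TTCNNNGAA (GAS), which is carried by 7.02% of 32851 promoter stretches of this length in the table. No match was found on either strand to the RUNX core TGTGGT (14.05% of stretches) or to the interferon-stimulated response element, read as TTTC followed after 2 bases by TTTC (2.977% of stretches), in the 7 genes that had an entry. Il10ra and Il10rb had none. A match is a likeness of letters and not a binding site, and its absence says only that these letters are not in this window. The Ifnar1 and Ifngr2 stretches were 65.6% and 74.0% G and C, the Ifnar2 stretch was 54.0%, and the median over all stretches was 52.4%. The highest value among the 7 genes was 80.8% for Jak2.

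Totals ranged from 14442251 to 23641552 counts per sample, and each of the 9 genes had at least 129 counts in every sample. Values below are normalized CPM, the counts scaled to library size and then between libraries, as mean ± SD with n = 3. Such values are shares of the mRNA in a library, so changes in RNA per cell on activation cannot be read from them. The study added ERCC spike-in RNA, but 0 of the identifiers counted had ERCC names. The B cell marker Cd79a was at 290.7 to 2406 normalized CPM over the 12 libraries, lower in every 3-h library than in any resting library. Of 7 T cell markers, Cd3d, Cd3e and Cd3g did not exceed 0.819. The T cell markers summed to between 30.5 and 43.3 at rest and between 64.4 and 85.2 at 3 h, most of it Lck, at 26.4 to 82.2 over the 12 libraries. The summed level of 6 macrophage and monocyte markers was 234 to 462 normalized CPM in resting knockout and 270 to 330 in resting Cre-only libraries, and 31.0 to 61.6 and 27.8 to 35.7 at 3 h. In the same order, 4 erythroid markers summed to 246 to 410 and 36.1 to 253 at rest, and 115 to 203 and 12.3 to 136 at 3 h. For 4 plasma cell markers the sums were 165 to 401 and 195 to 264 at rest, and 398 to 439 and 286 to 348 at 3 h. Most of the 3-h sum was Xbp1, at 301 to 377 in knockout and 227 to 249 in Cre-only libraries. Sdc1 and Prdm1 were lower in every 3-h library than in any resting library. At rest Sdc1 was at 5.97 to 8.98 in knockout and 17.4 to 18.8 in Cre-only libraries. Among the 3 replicates, replicate 2 of the resting knockout cells held 873 normalized CPM of 68 genes that rose strongly on activation (log2 fold change over 4 in Cre-only cells), whereas the other resting libraries held 231 to 239. Replicate 2 of the 3-h knockout cells held 2009 normalized CPM of 351 genes that fell as strongly, against 634 to 688 in the other 3-h libraries. In replicate 1 of the 3-h knockout cells, 19.4% of well expressed genes lay over 1.5-fold from the mean of the other 2 replicates, the highest share of any library. Runx1 itself measured 84.0 ± 2.48 normalized CPM in Cre-only and 99.9 ± 3.75 in knockout cells at rest, a count over all exons that does not check the loss of exon 4.

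Ifnar1 was the member with the largest difference between genotypes, at rest and at 3 h. In resting Cre-only cells it was at 163, 159 and 153 normalized CPM in replicates 1 to 3, and in resting knockout cells at 449, 362 and 398. Every resting knockout library thus lay at over 2 times the level of every Cre-only library. The log2 fold change was 1.35 ± 0.10 (SE), a 2.55-fold higher level, with an adjusted p of 3.25e-05 (edgeR quasi-likelihood F test, Benjamini-Hochberg). This was rank 5 of the 13538 tested genes. In bulk samples, a change in RNA per cell and a change in the share of cells that express the gene cannot be told apart. The macrophage and monocyte, erythroid and plasma cell marker sums of the resting genotypes, given above, overlapped. The part of such cells in the Ifnar1 difference was not tested.

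Ifnar1 was also higher in knockout cells after 3 h. Cre-only cells were at 174, 169 and 153 normalized CPM and knockout cells at 282, 308 and 324, without overlap. The log2 fold change was 0.88 ± 0.10 (SE), 1.84-fold, with an edgeR adjusted p of 0.000415. Leaving out any of the 6 libraries of a comparison moved it between 1.27 and 1.42 at rest and between 0.83 and 0.96 at 3 h, and Ifnar1 passed the test each time. At 3 h the macrophage and monocyte and the erythroid marker sums overlapped between genotypes, but the plasma cell sums did not. Dendritic cell marker sums were 14.9 to 15.1 in knockout and 17.1 to 30.9 in Cre-only libraries at 3 h. The part of such cells in the 3-h Ifnar1 difference was not tested.

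Ifnar2, the high-affinity chain of the same receptor, was at 29.7, 29.7 and 34.4 normalized CPM in resting Cre-only and at 36.4, 47.8 and 40.9 in resting knockout cells. These groups did not overlap, but the log2 fold change of 0.42 ± 0.11 (SE) did not pass the test (edgeR adjusted p = 0.107). DESeq2 (adjusted p = 0.0220) and edgeR with a factor of unwanted variation (adjusted p = 0.0255) did call it. The highest value, 47.8, belonged to replicate 2 of the resting knockout cells, the library that also held more of the activation genes. Without this library the log2 fold change at rest was 0.30 (edgeR adjusted p = 0.312). At 3 h Ifnar2 was at 70.1, 72.9 and 65.5 in Cre-only and at 84.6, 75.9 and 81.4 in knockout cells (log2 fold change 0.22 ± 0.11 SE, edgeR adjusted p = 0.338). The level in knockout cells was again above that of Cre-only cells in every library, with a difference whose 95% interval ran from -0.02 to 0.45 on the log2 scale.

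Il10rb, the neighbour that shares exon sequence with Ifnar2, was at 42.7, 46.1 and 44.4 normalized CPM in Cre-only cells at rest and at 54.2, 61.0 and 57.1 in resting knockout cells. The log2 fold change was 0.37 ± 0.08 (SE), 1.29-fold, with an edgeR adjusted p of 0.0397. This call was lost when any of the 6 resting libraries was left out, with adjusted p-values of 0.0669 to 0.217 and log2 fold changes of 0.32 to 0.41. At 3 h Il10rb was at 76.6, 82.5 and 83.9 in Cre-only and at 98.2, 89.6 and 93.2 in knockout cells, a log2 fold change of 0.21 ± 0.08 (SE) with an edgeR adjusted p of 0.209. The groups did not overlap at either time.

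Ifngr2, the gene of the cluster next to Ifnar1, did not pass the test between genotypes. It was at 61.0, 60.9 and 62.7 normalized CPM in resting Cre-only and at 58.1, 68.8 and 61.0 in resting knockout cells, and at 116, 108 and 109 against 125, 107 and 113 at 3 h. The 95% intervals of the log2 fold change were -0.16 to 0.21 at rest and -0.14 to 0.23 at 3 h. Its partner Ifngr1, on chromosome 10, was at 123, 118 and 125 in Cre-only and 130, 122 and 127 in knockout cells at rest. At 3 h Ifngr1 was at 36.9, 36.5 and 37.4 in Cre-only and at 38.9, 37.3 and 30.4 in knockout cells. The intervals for Ifngr1 were -0.14 to 0.25 at rest and -0.25 to 0.15 at 3 h, so that neither IFN-γ receptor chain passed the test and the groups overlapped at both times.

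Il10ra was at 199, 230 and 227 normalized CPM in resting Cre-only and at 204, 196 and 195 in resting knockout cells, with a log2 fold change of -0.14 ± 0.25 (SE) and an edgeR adjusted p of 0.844. After 3 h Il10ra was at 11.5, 9.73 and 11.9 in Cre-only and at 8.30, 23.5 and 10.7 in knockout cells (log2 fold change 0.35 ± 0.29 SE, edgeR adjusted p = 0.530). The high value belonged to replicate 2 of the 3-h knockout cells, the library that also held more of the resting-state genes. Without this library the log2 fold change at 3 h was -0.22, with an adjusted p of 0.398.

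Of the kinases, Tyk2 differed between genotypes at 3 h and was lower in knockout cells. It measured 55.4, 51.7 and 51.9 normalized CPM in Cre-only and at 33.6, 41.7 and 43.3 in knockout cells, a log2 fold change of -0.42 ± 0.10 (SE) with an edgeR adjusted p of 0.0405. The call was lost in 5 of the 6 fits that left out a library of this comparison, the exception being the fit without replicate 3 of the knockout cells. Without replicate 1, the library with the lowest Tyk2, the log2 fold change was -0.30 (adjusted p = 0.105). At rest Tyk2 was at 99.8, 99.0 and 104 in Cre-only and at 87.4, 78.5 and 86.3 in knockout cells, and the groups did not overlap (log2 fold change -0.26 ± 0.10 SE, edgeR adjusted p = 0.290).

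Jak1 and Jak2 did not pass the test between genotypes at either time. Jak1, the kinase shared by all 3 receptors, was at 662, 729 and 711 normalized CPM in resting Cre-only and at 846, 648 and 818 in resting knockout cells. After 3 h Jak1 was at 374, 388 and 364 in Cre-only and at 290, 359 and 371 in knockout cells. The spread of Jak1 among knockout libraries, 107 normalized CPM (SD) at rest, exceeded the Cre-only spread of 34.9 at rest. Jak2 was at 152, 163 and 162 in resting Cre-only and at 157, 151 and 163 in resting knockout cells, and at 198, 205 and 196 against 154, 200 and 177 at 3 h. The 95% intervals of the log2 fold change were -0.23 to 0.19 at rest and -0.38 to 0.03 at 3 h for Jak2, and -0.13 to 0.40 and -0.41 to 0.12 for Jak1.

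**Figure D1:**
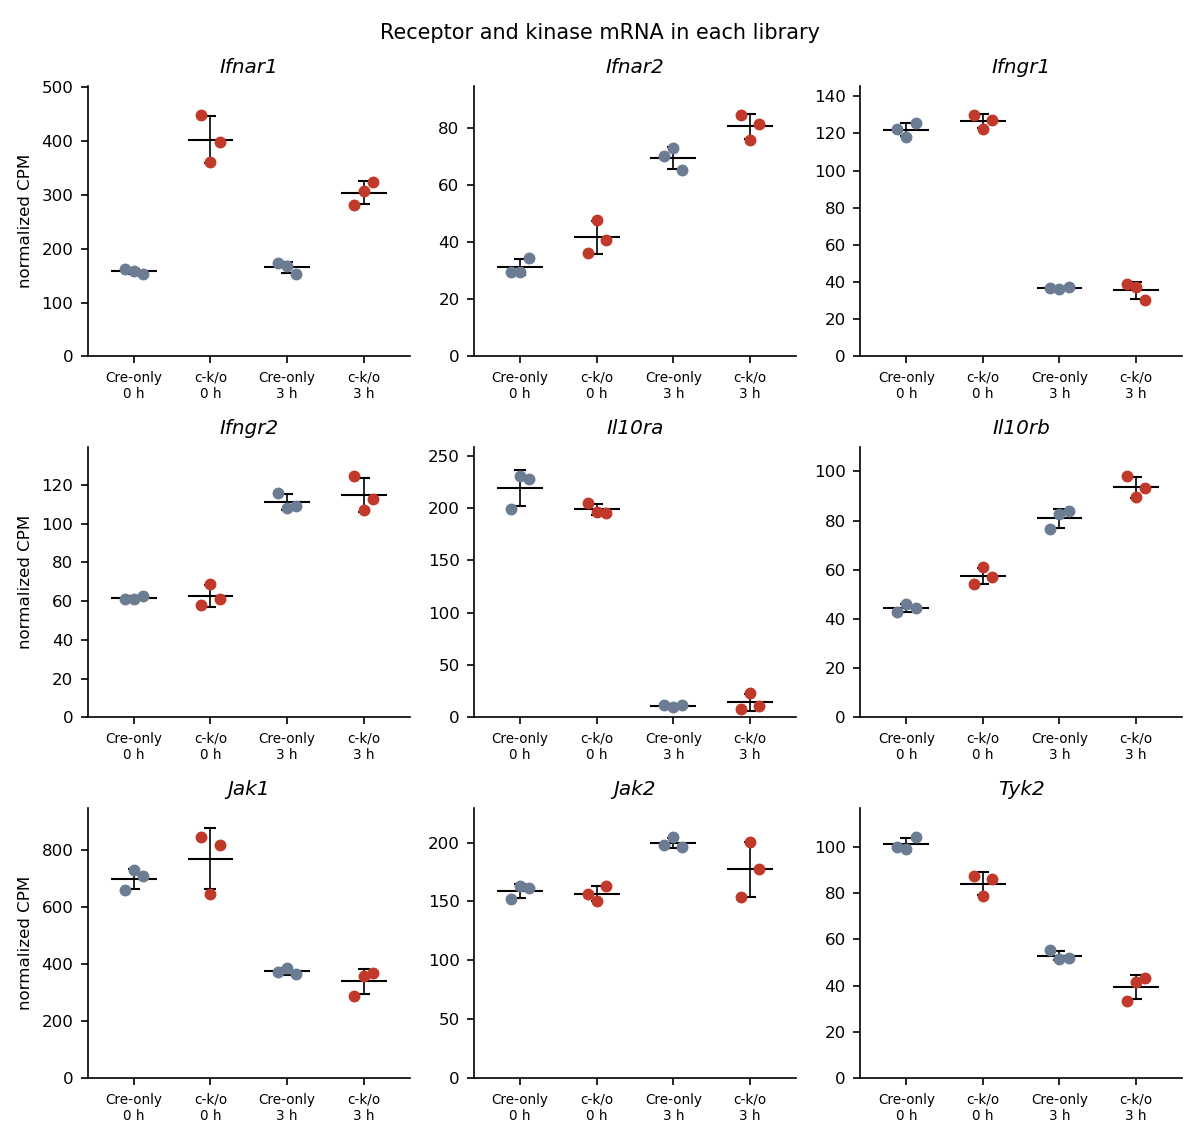
Normalized CPM (vertical axes, from 0) of the 9 genes in the 12 libraries, with a panel for each gene. Points are replicates 1 to 3 from left to right, gray for Cre-only and red for knockout cells, and lines with bars are mean ± SD of 3 samples. Ifnar1 in knockout cells lies above every Cre-only library, and Il10ra falls at 3 h in both genotypes, with replicate 2 of the knockout cells at 23.5.

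Counted over the 9 genes, 2 passed the test at rest, Ifnar1 and Il10rb, both higher in knockout cells, where 1.49% of the 13538 tested genes were called (0.731% higher and 0.761% lower). At 3 h 2 passed, Ifnar1 higher and Tyk2 lower, where 2.77% of all tested genes were called (1.47% higher and 1.30% lower). At both times the libraries of the genotypes did not overlap for the same 4 genes, Ifnar1, Ifnar2 and Il10rb above and Tyk2 below, while 23.7% of all tested genes had no overlap at rest and 21.8% at 3 h. The median log2 fold change of the 9 genes was 0.05 at rest and 0.05 at 3 h, and that of all tested genes 0.03 and 0.01.

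**Figure D2:**
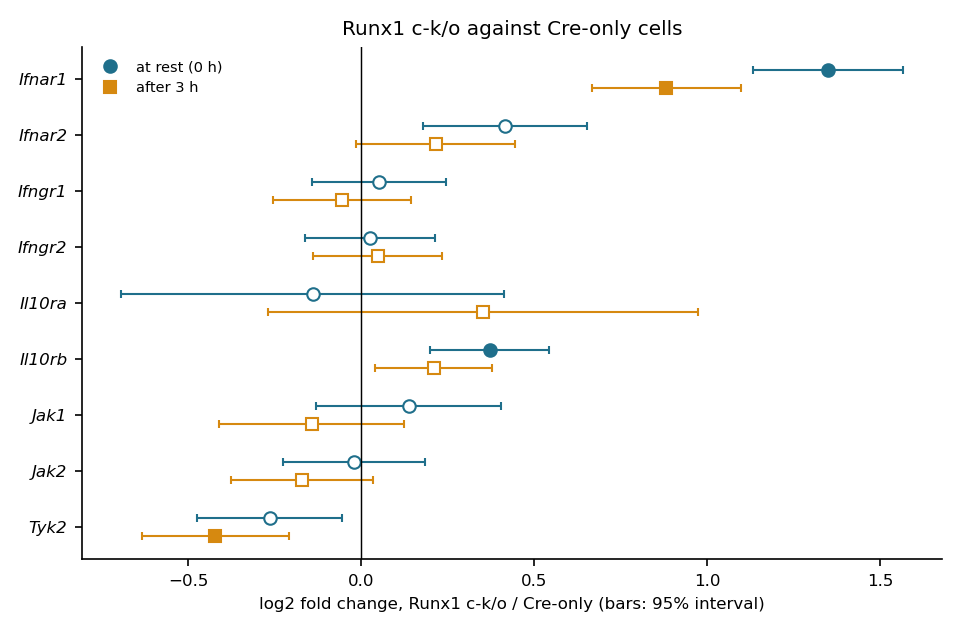
Log2 fold change of knockout against Cre-only cells (horizontal axis) for each gene, at rest (blue circles) and after 3 h (orange squares), from 3 samples a group. Bars are 95% intervals of the edgeR fit, and filled symbols passed an adjusted p of 0.05. Ifnar1 stands at 1.35 and 0.88, apart from the other 8 genes.

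The change of the genotype difference between rest and 3 h was tested as an interaction. By edgeR 0 of the 9 genes passed, with 1 at an unadjusted p under 0.05, against 0.0813% of all tested genes called. DESeq2 called 0, and edgeR with a factor of unwanted variation called 1, Ifnar1. For Ifnar1 the interaction was -0.47 ± 0.14 on the log2 scale (SE, 95% interval -0.77 to -0.16), with an edgeR adjusted p of 0.570 and 0.0442 with the factor of unwanted variation. A smaller Ifnar1 difference at 3 h than at rest was therefore called only in that fit.

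Nearly all of these genes differed between resting and 3-h activated cells, and the chains of the IFN-γ and IL-10 receptors moved in opposite directions. No group was incubated for 3 h without anti-IgM and IL-4. Effects of anti-IgM, of IL-4 and of the time in culture therefore cannot be told apart. By edgeR 8 of the 9 genes passed in Cre-only cells, 4 higher and 4 lower, against 75.0% of all tested genes called (38.6% higher and 36.4% lower). In knockout cells 8 passed, 3 higher and 5 lower, against 74.3% of all tested genes (37.7% higher and 36.6% lower). Activation was thus called for these genes about as often as for all genes. Each activation comparison shares its 3-h and its resting libraries with the comparisons of genotype, so the values are given side by side and are not independent of those above.

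The largest change was the fall of Il10ra, from 219 ± 17.3 normalized CPM to between 9.73 and 11.9 in Cre-only cells and from 199 ± 5.14 to 14.2 ± 8.17 in knockout cells. The log2 fold changes were -4.31 ± 0.30 and -3.81 ± 0.29 (SE), with edgeR adjusted p-values of 9.75e-08 and 2.49e-07. Only 2.33% of tested genes had a larger change of either sign in Cre-only cells. Il10rb rose meanwhile, with log2 fold changes of 0.87 ± 0.08 in Cre-only and 0.71 ± 0.08 in knockout cells (SE, edgeR adjusted p = 7.71e-07 and 4.71e-06).

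The IFN-γ receptor chains also moved in opposite directions. Ifngr1, the ligand-binding chain, fell from 122 ± 3.65 to 36.9 ± 0.439 normalized CPM in Cre-only and from 127 ± 3.82 to 35.6 ± 4.51 in knockout cells, a 3.30-fold and a 3.56-fold lower level (edgeR adjusted p = 2.07e-08 and 2.55e-08). Ifngr2, the signaling chain, rose from 61.6 ± 1.01 to 111 ± 4.05 and from 62.6 ± 5.52 to 115 ± 8.91. The log2 fold changes were 0.85 and 0.87 (edgeR adjusted p = 2.00e-06 and 1.77e-06).

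For the type I receptor, Ifnar2 rose 2.22-fold in Cre-only and 1.94-fold in knockout cells (edgeR adjusted p = 1.08e-06 and 5.66e-06). Ifnar1 was at 158 ± 5.09 normalized CPM at rest and 165 ± 10.9 at 3 h in Cre-only cells, and did not pass the test (log2 fold change 0.06, 95% interval -0.15 to 0.28, edgeR adjusted p = 0.577). The sign of this small difference turned negative under other scalings. In knockout cells Ifnar1 fell from 403 ± 43.7 to 305 ± 21.1, a log2 fold change of -0.40 ± 0.10 (SE, edgeR adjusted p = 0.00250). With a factor of unwanted variation the fall was -0.18 and did not pass (adjusted p = 0.210). Every 3-h knockout library remained above every Cre-only library of either time.

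Among the kinases, Jak1 fell 1.86-fold in Cre-only and 2.27-fold in knockout cells, and Tyk2 1.91-fold and 2.12-fold (edgeR adjusted p from 8.49e-07 to 2.88e-05). Jak2 rose 1.26-fold in Cre-only cells (log2 fold change 0.33 ± 0.09 SE, edgeR adjusted p = 0.00715). In knockout cells Jak2 did not pass (log2 fold change 0.18 ± 0.09 SE, edgeR adjusted p = 0.107), but did without replicate 1 of the 3-h knockout cells (0.26, adjusted p = 0.0161) and with a factor of unwanted variation (0.46, adjusted p = 0.000962). The difference between the genotypes in the activation of Jak2 was not called (interaction -0.15, edgeR adjusted p = 0.999).

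**Figure D3:**
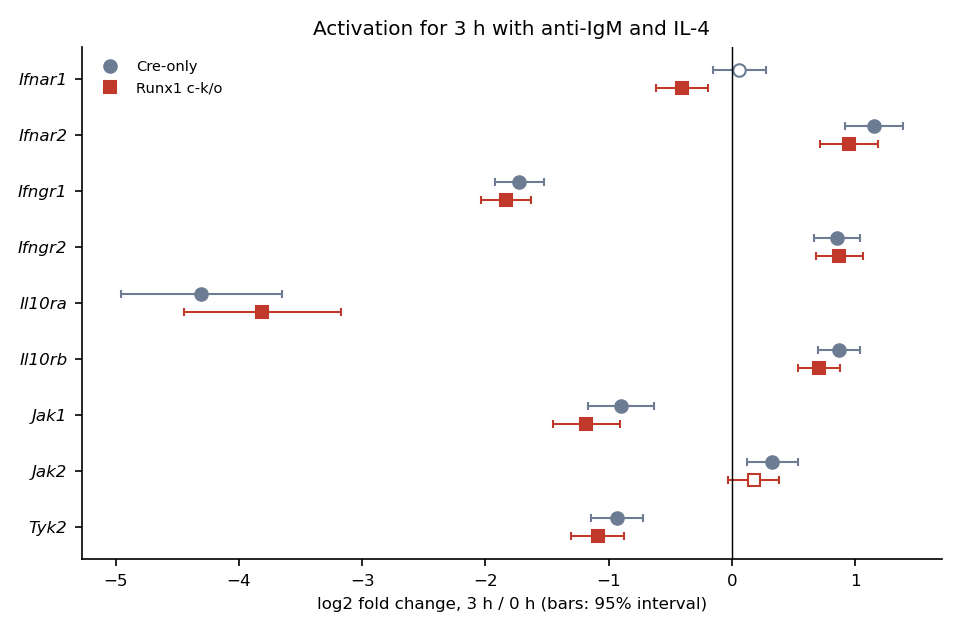
Log2 fold change of 3-h against resting cells (horizontal axis) for each gene, in Cre-only (gray circles) and knockout cells (red squares), from 3 samples a group. Bars are 95% intervals of the edgeR fit, and filled symbols passed an adjusted p of 0.05. Ifnar2, Ifngr2 and Il10rb lie to the right of 0, and Ifngr1, Il10ra, Jak1 and Tyk2 to the left, in both genotypes.

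To compare levels between genes, normalized CPM was divided by the length of merged exons in kb. In resting Cre-only cells the order was Jak1 (96.9 ± 4.82 per kb), Il10ra (62.6 ± 4.96), Ifngr1 (42.9 ± 1.28), Jak2 (31.6 ± 1.25), Ifnar1 (26.9 ± 0.866), Tyk2 (21.9 ± 0.614), Ifngr2 (18.6 ± 0.306), Il10rb (11.7 ± 0.443) and Ifnar2 (8.02 ± 0.695). No neighbours in this order overlapped in their 3 libraries. Il10rb and Ifnar2 share exon sequence, so their levels per kb and their places in each order are less certain. In resting knockout cells Ifnar1, at 68.5 ± 7.44 per kb, stood at rank 2 behind Jak1 at 107 ± 14.9, where it held rank 5 in Cre-only cells. Only Ifngr2 and Tyk2 overlapped among neighbours in that group. At 3 h the Cre-only order ran from Jak1 (52.0 ± 1.66 per kb) through Jak2 (39.7 ± 0.890), Ifngr2 (33.5 ± 1.22) and Ifnar1 (28.1 ± 1.86) to Il10ra at the lowest level (3.16 ± 0.330), with no overlap of neighbours. In 3-h knockout cells Ifnar1 (51.8 ± 3.58 per kb) and Jak1 (47.0 ± 6.03) overlapped at the top, and Jak2 and Ifngr2 overlapped next, while Il10ra was again lowest (4.05 ± 2.34).

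The balance of the chains of a receptor was followed as the ratio of reads per kb within each library, which does not depend on scaling between libraries. With 3 samples against 3, an exact permutation test cannot give a p under 0.1, and over the 12 comparisons made the smallest adjusted p was 0.133, so none could reach 0.05. The Ifnar1 to Ifnar2 ratio was 3.63, 3.56 and 2.94 in resting Cre-only libraries and 8.18, 5.02 and 6.45 in resting knockout libraries. At 3 h it was 1.65, 1.53 and 1.55 in Cre-only and 2.21, 2.69 and 2.64 in knockout libraries. The ratio in knockout cells was above that in Cre-only cells without overlap at both times, by 1.91-fold at rest and 1.59-fold at 3 h (exact two-sided permutation p = 0.1 for each, adjusted p = 0.133). Because Ifnar2 and Il10rb share exon sequence, the absolute ratios of both chains carry that uncertainty.

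The Ifngr1 to Ifngr2 ratio lay above 2 in every resting library and below 1 in every 3-h library. It was 2.34, 2.26 and 2.33 in resting Cre-only and 2.60, 2.07 and 2.43 in resting knockout libraries. At 3 h it was 0.371, 0.393 and 0.399 in Cre-only and 0.364, 0.405 and 0.315 in knockout libraries, so that Ifngr2 was the more abundant chain in all 6 libraries. The genotypes overlapped at both times. The Il10ra to Il10rb ratio was 5.07, 5.44 and 5.56 in resting Cre-only and 4.10, 3.50 and 3.71 in resting knockout libraries, 1.42-fold lower without overlap (exact two-sided permutation p = 0.1, adjusted p = 0.133). At 3 h the same ratio was 36.2-fold lower than at rest in Cre-only and 25.4-fold lower in knockout cells, at 0.163, 0.128 and 0.154 and at 0.0920, 0.285 and 0.124, again without overlap between times (exact p = 0.1 for each). Without both replicate 2 knockout libraries, which stand apart as described above, it was 36.4-fold lower in knockout cells.

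**Figure D4:**
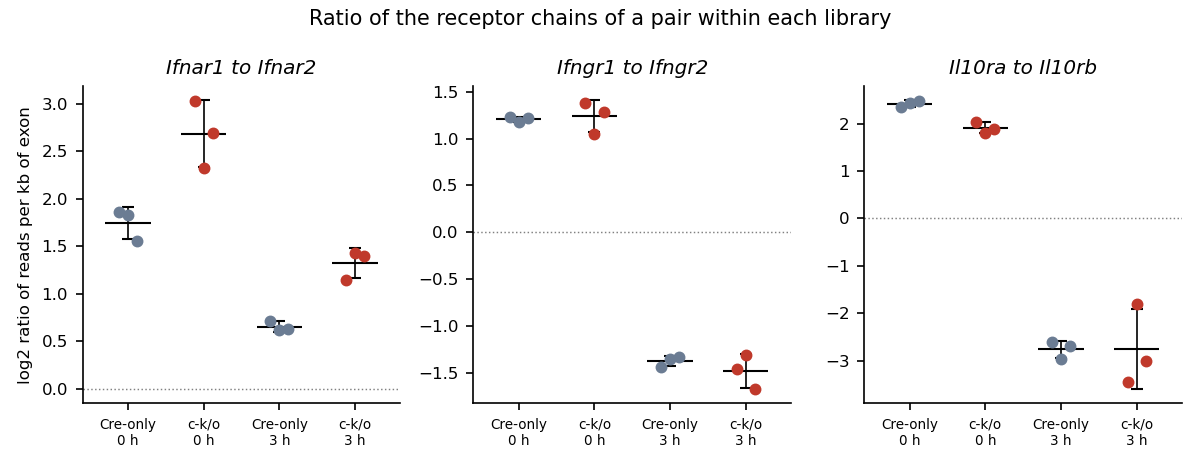
Log2 ratio of reads per kb of exon between the chains of a receptor in each library (vertical axes), for Ifnar1 to Ifnar2, Ifngr1 to Ifngr2 and Il10ra to Il10rb. Points are replicates 1 to 3, gray for Cre-only and red for knockout cells, lines with bars are mean ± SD of 3 samples, and the dotted line marks equal reads per kb. The Ifnar1 to Ifnar2 ratio is higher in knockout cells at both times, and the other ratios pass from above to below the dotted line at 3 h.

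The genes around the cluster were examined because Runx1, the targeted gene, lies on the same chromosome. Only knockout cells carried the floxed allele. The loss of Runx1 and any other difference carried along with that allele therefore cannot be told apart here. Within 2 Mb of Runx1, 41 genes other than Runx1 were tested, 4 of them members. At rest 2 of the 41 were called, Ifnar1 and Il10rb, where edgeR called 1.49% of all tested genes. Of the 37 others, 0 passed by edgeR or by DESeq2, a count near that share. An unadjusted edgeR p under 0.05 was reached by 5 of them, and the share of all tested genes that reached it is not given here. With a factor of unwanted variation 3 of them were called, in a fit that called 524 of all 13538 tested genes at rest. At 3 h, where 2.77% of all tested genes were called, 3 of the 41 passed. These were Ifnar1 and Itsn1, higher, and A930006K02Rik, a noncoding RNA gene within the cluster, lower. Of the 15 tested genes between Ifngr2 and Runx1, 0 were called at rest by edgeR or by DESeq2 (1 at an unadjusted p under 0.05) and 1 at 3 h, Itsn1. Their median log2 fold change was -0.01 at rest and 0.13 at 3 h.

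Itsn1, which encodes an endocytic scaffold protein, starts 1096.8 kb from the Runx1 start. It was at 28.7, 25.1 and 25.8 normalized CPM in resting Cre-only and at 21.1, 28.4 and 23.4 in resting knockout cells, with overlap. After 3 h Itsn1 was at 23.6, 18.9 and 20.6 in Cre-only and at 63.9, 56.0 and 57.9 in knockout cells (log2 fold change 1.49 ± 0.12 SE, edgeR adjusted p = 7.20e-05). A930006K02Rik measured 1.19 normalized CPM in Cre-only and 0.475 in knockout cells at 3 h (edgeR adjusted p = 0.0443), a call kept in 4 of 13 other fits. Runx1 itself was at 38.5, 37.0 and 34.9 in Cre-only and at 47.3, 70.6 and 74.5 in knockout cells at 3 h (log2 fold change 0.80 ± 0.14 SE, edgeR adjusted p = 0.00769).

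**Figure D5:**
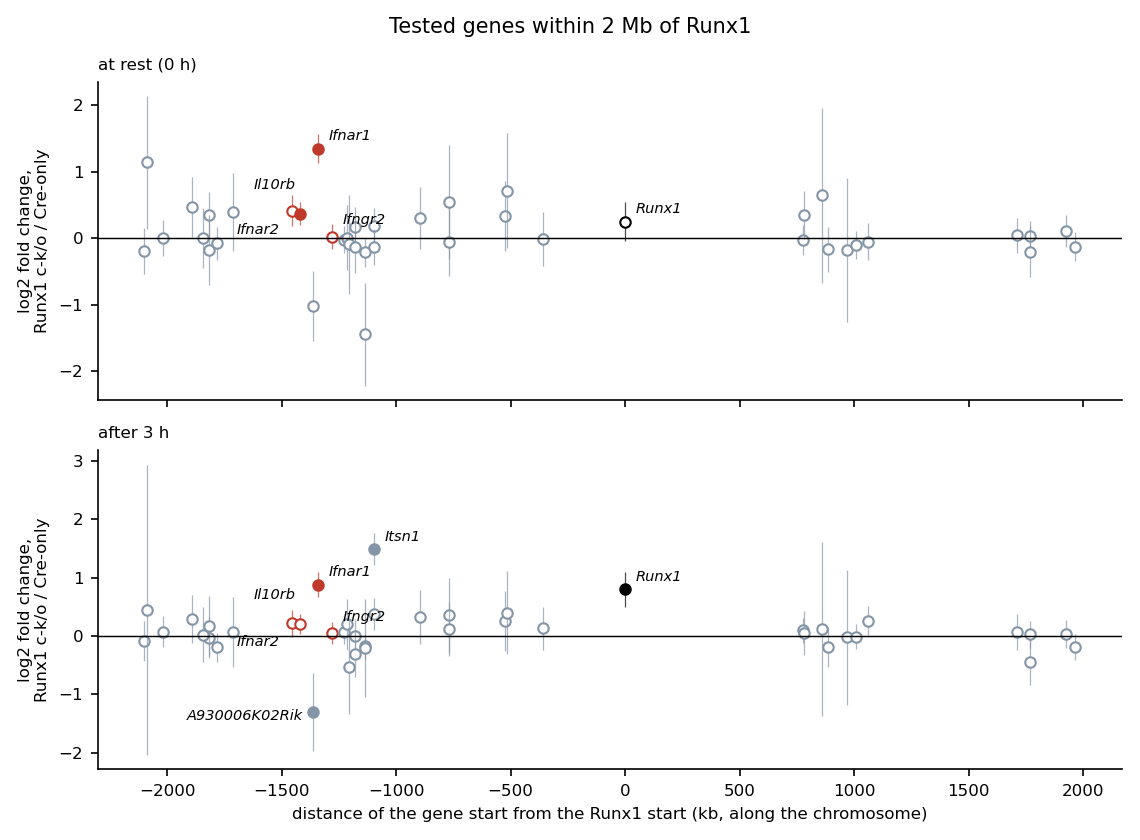
Log2 fold change of knockout against Cre-only cells (vertical axes) for the tested genes within 2 Mb of Runx1, at rest (top) and after 3 h (bottom), by the distance of the gene start from the Runx1 start in kb (horizontal axis). Bars are 95% intervals of the edgeR fit from 3 samples a group, filled points passed an adjusted p of 0.05, receptor genes are red and Runx1 is black. Ifnar1 stands above its neighbours at both times, and Itsn1 at 3 h.

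The ligands of these receptors were mostly below the level that could be tested. Of 25 ligand genes, 3 were tested, and no type I interferon gene exceeded 5 counts in any library. Il10 was at 3.23, 4.44 and 5.33 normalized CPM in resting Cre-only, at 3.81, 8.79 and 4.91 in resting knockout, at 2.63, 3.46 and 4.33 in 3-h Cre-only and at 9.53, 11.4 and 10.5 in 3-h knockout cells. Its level at 3 h was higher in knockout cells by a log2 fold change of 1.61 ± 0.29 (SE, edgeR adjusted p = 0.0114), and the groups did not overlap. At rest the difference was 0.43 ± 0.29 and did not pass (edgeR adjusted p = 0.636). Ifng and Il24, the other ligands tested, did not pass between genotypes.

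Of the 6 other receptor chains of the same family, 2 were tested. Ifnlr1, which pairs with IL10RB to form the IFN-λ receptor, measured 3.67, 3.14 and 2.99 normalized CPM in Cre-only and at 1.48, 1.57 and 1.18 in knockout cells at 3 h, a log2 fold change of -1.22 ± 0.22 (SE, edgeR adjusted p = 0.00979). Over all tested genes, 1.49% were called between genotypes at rest and 2.77% at 3 h. Among 20 tested receptors and Jak3 outside this family, 1 was lower in knockout cells at each time and 0 were higher. This was Il9r, the IL-9 receptor chain, at 93.8, 95.4 and 176 normalized CPM in resting Cre-only and 24.1, 24.3 and 28.1 in resting knockout cells. Its log2 fold change was -2.25 ± 0.28 at rest and -2.18 ± 0.29 at 3 h (SE, edgeR adjusted p = 0.00165 and 0.00159). DESeq2 called 1 and 3 genes of this list at rest and at 3 h. On activation in Cre-only cells 9 of the 20 rose and 7 fell, a share near the 75.0% of all tested genes called. The largest changes were those of Il2ra (log2 fold change 5.88 ± 0.72), Il7r (5.80 ± 0.62) and Il13ra1 (-3.36 ± 0.46, all SE, edgeR adjusted p from 3.15e-06 to 2.74e-05).

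Among the STAT genes and Irf9, which carry the signal to the nucleus, Stat4 was lower in knockout cells at rest. Stat4 was at 47.5, 52.0 and 53.9 normalized CPM in resting Cre-only and at 34.6, 33.4 and 28.7 in resting knockout cells, without overlap (log2 fold change -0.66 ± 0.12 SE, edgeR adjusted p = 0.0204), and was called in 9 of 14 other fits. Irf9 at 3 h was at 82.4, 82.4 and 86.3 in Cre-only and at 107, 114 and 115 in knockout cells, and was higher by 0.42 ± 0.09 on the log2 scale (SE, edgeR adjusted p = 0.0235), a call kept in 8 of 14 other fits. On activation in Cre-only cells the largest rises were those of Stat5a, at 3.06 ± 0.17, and Stat3, the factor used by the IL-10 receptor, at 2.28 ± 0.12 on the log2 scale (SE, edgeR adjusted p = 2.60e-08 and 2.20e-08).

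Among 19 genes that restrain this signaling, 1 was higher in knockout cells at rest, and 1 was higher and 2 were lower at 3 h. The shares of all tested genes called were 1.49% at rest and 2.77% at 3 h. Usp18, which displaces JAK1 from IFNAR2 and is itself induced by interferon, measured 7.76, 7.80 and 6.57 normalized CPM in Cre-only and 12.3, 12.6 and 12.1 in knockout cells at rest (log2 fold change 0.74 ± 0.16 SE, edgeR adjusted p = 0.0461), a call kept in 5 of 14 other fits. After 3 h Usp18 was at 6.04, 4.05 and 6.88 against 18.9, 20.3 and 23.1 (1.87 ± 0.16 SE, edgeR adjusted p = 0.000107). Socs5 (-0.72 ± 0.13 SE, edgeR adjusted p = 0.00834) and Ptpn1, a phosphatase of JAK2 and TYK2 (-0.41 ± 0.09 SE, edgeR adjusted p = 0.0276), were lower at 3 h, calls kept in 13 and 7 of 14 other fits. On activation in Cre-only cells 13 of the 19 rose and 5 fell, where 38.6% of all tested genes were called higher and 36.4% lower. The largest changes were those of Cish (6.99 ± 0.77), Socs1, an inhibitor of the kinases (3.54 ± 0.33), and Ptprc, which encodes CD45 (-1.88 ± 0.14, all SE on the log2 scale, edgeR adjusted p from 1.46e-07 to 4.02e-06). Of 5 genes for the turnover of IFNAR1 protein, 0 passed between genotypes at rest by edgeR or DESeq2, with 0 at an unadjusted p under 0.05, and Ptpn1 alone passed at 3 h.

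Of 29 genes induced by interferon, 3 were higher and 0 lower in knockout cells at rest, where 0.731% of all tested genes were called higher. At 3 h 18 were higher and 0 lower, where 1.47% of all tested genes were called higher. Those with the smallest adjusted p were Irf7 (log2 fold change 1.78 ± 0.15), Usp18, Zbp1 (1.04 ± 0.10) and Oas1a (1.60 ± 0.17, all SE at 3 h, edgeR adjusted p from 7.17e-05 to 0.000290). On activation in Cre-only cells 25 of the 29 fell and 0 rose, where 36.4% of all tested genes were called lower.

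The genes whose normalized log2 CPM most resembled each member over the 12 samples are given as a description, since most such likeness follows the difference between 0 h and 3 h that the samples share. Ifnar1 was most like Six5 (Pearson r = 0.96), Gm16857 (0.95) and Lrig1 (0.93), and these 3 genes were at 1.29 normalized CPM or less in Cre-only cells at rest and at 1.56 to 9.81 in resting knockout cells. Ifnar2 was most like Itgb1, Fyn and Egr2 (r = 0.99 each), and Il10rb most like Fyn, Bspry and Trim8 (r = 0.99 each). Ifngr1 resembled Pold1, Sh3bp1 and Mppe1, Ifngr2 resembled Metap1, Sf3a2 and Abcf1, and Il10ra resembled Dgka, Gm885 and Klf11, with r between 0.997 and 0.999. For the kinases the leading genes were Fam76b, Capn7 and Rapgef1 for Jak1, Pkd2l2, Dcun1d4 and Zfp563 for Jak2, and Mical1, Helb and Dgkd for Tyk2, with r between 0.94 and 0.997. Ifnar1 was the member whose likest genes differed mainly by genotype, and Fyn was shared by the neighbours Ifnar2 and Il10rb.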

How the data were processed

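RNA from splenic B cells of 12 samples was sequenced after poly(A) selection with a stranded kit. The authors aligned the reads to mm9 with TopHat2 2.0.11, counted them on Ensembl genes with featureCounts and deposited these raw counts, without normalization. The submitters' processing notes also name CASAVA 1.8.4. Handling of reads shared by overlapping genes is not given in the sources used here. Names, positions and exon lengths came from a GENCODE annotation of mm9, which named 37205 of the 37991 identifiers, and upstream sequences from RefSeq (GRCm38.p6), located in mm9 by exact match.

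Counts were read with Python 3.11.15 and pandas 2.3.3 and fitted with edgeR 4.0.16 in R 4.3.3. Genes were kept by filterByExpr with its minimum of 10 counts, scaled by TMM and fitted with a term for each of the 4 groups over all 12 samples (robust quasi-likelihood F test, Benjamini-Hochberg adjustment over 13538 genes, threshold 0.05). Intervals are at 95%. Gene correlations used log2 CPM with a prior count of 2. Ratios of receptor chains were compared by exact two-sided permutation tests. A floor of 3 counts lay between 0.127 and 0.208 CPM, and covers counting error only. In a simulation of all 12 libraries, each gene had its mean level over 0 h and 3 h, without an activation effect. Changes were put only into the resting knockout libraries. Among 13152 genes, edgeR called 17 of 49 changed 1.5-fold, 32 of 50 changed 2-fold and 7 of 12959 unchanged genes.

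All 9 receptor and kinase genes are reported with every sample's value. From each list of pathway genes, at most 4 genes passing between genotypes were named, by smallest adjusted p. The 3 largest changes on activation were added for the receptors, STATs and brakes, along with up to 6 called genes between the receptor cluster and Runx1. A930006K02Rik, which lies inside the cluster, and the highest and lowest levels were named after their values were seen. The genes, lists and tests were chosen with earlier results of these data known, and the other settings are those listed in the closing section. Resting and 3-h Cre-only samples of the same number deviated together (correlations 0.144 to 0.275 over genes). For knockout cells the correlations were -0.254, -0.264 and 0.254 for replicates 1 to 3. The highest among knockout cells, 0.477, joined resting replicate 2 and 3-h replicate 1. Pairing by number was therefore borne out by these correlations in Cre-only cells and not in knockout cells, where it rests on the numbers alone. Some genes of the lists are not reported here.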

Additional observations from a re-analysis of the deposited data

Results flagged for a closer look

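Of the genes named above, 2 had a genotype difference that differed between rest and 3 h by edgeR's test of the interaction, and neither is a receptor or kinase of this group. For Itsn1 the interaction was 1.62 ± 0.18 on the log2 scale (SE, edgeR adjusted p = 0.00720), with the 3 knockout libraries above the 3 Cre-only libraries at 3 h and overlapping them at rest. It passed in 19 of 20 other fits, the exception being the fit with the replicate block within genotype (adjusted p = 0.0709). For Zbp1, an interferon-induced sensor of nucleic acids, it was 0.93 ± 0.14 (SE, edgeR adjusted p = 0.0282). Zbp1 was at 49.6, 47.1 and 46.9 normalized CPM in resting Cre-only and at 54.3, 50.6 and 50.3 in resting knockout cells, and at 29.7, 24.8 and 31.5 against 58.1, 55.6 and 64.0 at 3 h. It passed in 8 of 20 other fits. The causes were not tested. Groups of 3 samples are too small for a check of single outlying samples.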

How the results depend on the processing

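The count of the 9 genes called between genotypes fell from 2 to 1 in most other fits. Ifnar1 remained in all of them (14 at rest, 14 at 3 h), with adjusted p-values up to 0.00114 at rest and 0.00916 at 3 h. At rest 1 gene was called without the filter on low counts, with only the groups compared and with both replicate 2 libraries of knockout cells left out (a setting chosen after seeing the data), and 4 with 1 RUVs factor of unwanted variation. At 3 h 1 was called with DESeq2's size factors, without the filter, with at least 10 counts in every sample and with only the groups compared. Leaving out a library gave 1 gene each time at rest and 1 to 2 at 3 h. With 1 RUVs factor, 1 gene, Ifnar1, was called in the interaction. With the replicate number as a block across groups, a pairing that the data did not bear out between genotypes, 1 gene was called at rest and 1 at 3 h. The replicate block, across groups or within genotype, changed no call of these genes on activation. The cause of these changes was not tested, except that fits without a library hold fewer samples.

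Near Runx1, the count at rest was 0 in a window of 1 Mb, which does not reach the receptor cluster, 1 without the filter, with the block, with only the groups compared and with both replicate 2 libraries left out, 6 with 1 RUVs factor, and 1 in each fit without a library. At 3 h it was 1 in the window of 1 Mb and 2 to 3 without a library. Of the 83 tested genes of the other lists, 5 were called at rest and 24 at 3 h. At rest this became 8 with DESeq2, 14 with 1 RUVs factor, 2 with the block, 8 with only the groups compared, 3 with both replicate 2 libraries left out and 2 to 5 without a library. At 3 h it became 38 with 1 RUVs factor, 11 with only the groups compared and 13 to 28 without a library, the lowest being the fits without Cre-only replicate 1 (13) and replicate 2 (14). In the interaction 1 was called, 7 with DESeq2, 11 with 1 RUVs factor, 0 with the block within genotype, 0 with both replicate 2 libraries left out and 0 to 3 without a library.

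Over all tested genes, 202 were called at rest and 375 at 3 h by edgeR, 378 and 709 by DESeq2, and 524 and 1036 with 1 RUVs factor. Without a library the counts were 81 to 140 at rest and 180 to 617 at 3 h, and with only the groups compared 158 at 3 h. In the interaction 11 were called, 83 by DESeq2, 142 with 1 RUVs factor, 4 with the block within genotype and 4 to 31 without a library.

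Of 702 values of the 9 genes under other settings, 654 kept direction and side of the threshold, 22 lost and 7 gained a call, and 19 changed sign. All sign changes were in values that did not pass the test. Ifnar1 on activation in Cre-only cells went from 0.06 to -0.021 with DESeq2's size factors, to -0.020 with DESeq2, to -0.10 with at least 10 counts in every sample, and to -0.0051 with only the groups compared. The setting of 10 counts moved the median of all genes by -0.16 in that comparison and by -0.10 in knockout cells, and with it Jak2 (0.17, adjusted p = 0.144) no longer passed in Cre-only cells. At rest, Ifngr2 became -0.014 with 1 RUVs factor and -0.048 without both replicate 2 libraries, and ranged from -0.050 to 0.078 without a library. Jak2 became 0.024 and 0.0071 in the same fits and ranged from -0.054 to 0.0054. At 3 h, Ifngr2 became -0.00052 with 1 RUVs factor, Ifngr1 ranged from -0.10 to 0.046 without a library and Il10ra from -0.22 to 0.65, and Il10ra was -0.22 without both replicate 2 libraries. In the interaction, Ifngr2 ranged from -0.030 to 0.097 and Il10ra from -0.079 to 0.80 without a library, and Il10ra was -0.087 without both replicate 2 libraries.

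Gene length cancels in a difference of log2 ratios, so leaving it out tests nothing here. Without a library, the Ifngr1 to Ifngr2 difference at rest ranged from -0.041 to 0.12 on the log2 scale and the Il10ra to Il10rb difference at 3 h from -0.47 to 0.35, and the latter was -0.47 without both replicate 2 libraries. At these totals, and at levels averaged over 0 h and 3 h, 17 of 49 simulated 1.5-fold changes were called. Smaller differences could therefore be missed.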
